A study of Mus musculus with 19 samples.

Results

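Peaks of 5-hydroxymethylcytosine (5-hmC), an oxidised form of the methylated DNA base, were examined at promoters of protein-coding genes in mouse cardiomyocytes (CMCs). A peak was taken as a promoter peak when its centre lay from 1000 bp before to 100 bp after the transcription start site (TSS) of a protein-coding transcript on an autosome, a window of 1101 bp. By this rule 15188 of the 1000847 peaks in the 8 deposited lists were promoter peaks. The windows belonged to 24860 TSSs of 20021 genes and made up 1.04% of the known autosomal bases.

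DNA of CMCs was fragmented, fragments with 5-hmC were pulled down with an antibody (hMeDIP) and sequenced, and peaks were called in each replicate against input DNA. All mice were C57BL/6J, with no altered allele named. They were E14.5 embryos, pups 1 or 2 days old (neonatal), adults aged 2 months, or adults kept for 1 week under TAC (transverse aortic constriction, an operation that narrows the aorta and loads the heart with pressure). Each of these 4 points had 2 biological replicates. The CMCs were ventricular cells set apart from other heart cells by digestion and pre-plating (E14.5, neonatal) or by perfusion and settling (adult, TAC). In the paper's routine staining for sarcomeric actinin, most but not all cells were positive, so a remainder of other cells is likely. More cells with a mark cannot be told apart from more mark per cell. The adult lists came from mice labelled only as adult, and no sham-operated list was used here. The comparisons address where 5-hmC sits at promoters, and at which genes it is found at each point.

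5-hmC is made from 5-methylcytosine by the TET enzymes, mostly where a cytosine is followed by guanine (CpG). Promoters of broadly used genes often lie in CpG islands, stretches rich in CpG that are usually free of methylation, while promoters of tissue-specific genes are more often poor in CpG and methylated. Many genes have an alternative promoter further inside the gene, from which a shorter transcript starts.

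The sequences below show what lay under promoter peaks. They are the stretches shared by the peaks of the lists with a centre at that TSS (TAC replicate 2 left out, for the reason given with its distances), cut to their middle 300 bp or less and to the promoter window, and read 5′ to 3′ on the gene's strand. Capitals mark CpG. *Cntln* has a CpG island promoter, and its peaks and its start are shown together because the peaks lay upstream of its most CpG-dense part. Its shared stretch, chr4:84883847-84884146 on the + strand of GRCm38 (the assembly of mm10), ran from −462 to −163 bp from the TSS in 7 lists and held 12 CpGs. The 300 bp around its start, chr4:84884059-84884358, held 26 CpGs and come from the RefSeq promoter table (GRCm38.p6).
Cntln, under the peaks: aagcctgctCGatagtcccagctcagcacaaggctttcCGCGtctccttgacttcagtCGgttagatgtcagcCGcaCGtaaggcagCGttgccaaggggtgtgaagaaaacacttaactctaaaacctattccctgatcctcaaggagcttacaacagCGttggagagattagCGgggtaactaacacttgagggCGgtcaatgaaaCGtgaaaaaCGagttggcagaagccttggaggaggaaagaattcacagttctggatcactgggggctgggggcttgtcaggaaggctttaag
Cntln, around the start: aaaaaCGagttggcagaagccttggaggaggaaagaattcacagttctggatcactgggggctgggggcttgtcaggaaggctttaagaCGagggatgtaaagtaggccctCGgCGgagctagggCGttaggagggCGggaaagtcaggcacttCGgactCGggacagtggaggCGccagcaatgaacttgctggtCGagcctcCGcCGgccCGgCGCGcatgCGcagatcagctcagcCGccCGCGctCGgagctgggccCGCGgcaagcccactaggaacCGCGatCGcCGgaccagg

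*Reep1* (chr6:71707028-71707327, + strand) and *Nxpe5* (chr5:138224961-138225260, + strand) had a peak in each of the 8 lists and are shown for what they held. The *Reep1* stretch had 8 CpGs and ended in a run of TG and a run of GA. The *Nxpe5* stretch was made mostly of broken CA repeats and had a single CpG.
Reep1: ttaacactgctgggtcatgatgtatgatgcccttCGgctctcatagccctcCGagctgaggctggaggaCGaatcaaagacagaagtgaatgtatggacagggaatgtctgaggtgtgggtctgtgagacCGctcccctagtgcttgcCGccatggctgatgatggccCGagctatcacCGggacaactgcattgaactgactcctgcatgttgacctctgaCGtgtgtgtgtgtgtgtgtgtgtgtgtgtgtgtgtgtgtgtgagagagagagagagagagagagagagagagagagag
Nxpe5: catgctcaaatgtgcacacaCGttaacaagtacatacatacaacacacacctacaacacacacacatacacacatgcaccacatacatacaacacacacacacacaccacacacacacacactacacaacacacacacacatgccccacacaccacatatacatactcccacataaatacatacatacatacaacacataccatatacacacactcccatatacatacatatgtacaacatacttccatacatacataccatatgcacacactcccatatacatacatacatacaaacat

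Cardiac genes come next. *Actn2* encodes the alpha-actinin of the Z disc and had a promoter peak in 7 lists (chr13:12341213-12341497, − strand, 3 CpGs). *Ryr2* encodes the calcium release channel of the sarcoplasmic reticulum, and its peaks were found in the 4 neonatal and adult lists (chr13:12107433-12107732, − strand, 7 CpGs). *Casq2* encodes the cardiac calsequestrin, which binds calcium in the same store, and had peaks in the E14.5 lists (chr3:102085734-102086033, + strand, 9 CpGs).
Actn2: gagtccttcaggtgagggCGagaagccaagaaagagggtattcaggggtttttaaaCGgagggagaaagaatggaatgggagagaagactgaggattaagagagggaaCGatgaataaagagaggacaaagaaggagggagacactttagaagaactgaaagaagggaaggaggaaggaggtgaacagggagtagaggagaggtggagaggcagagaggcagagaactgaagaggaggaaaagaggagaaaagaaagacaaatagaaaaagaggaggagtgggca
Ryr2: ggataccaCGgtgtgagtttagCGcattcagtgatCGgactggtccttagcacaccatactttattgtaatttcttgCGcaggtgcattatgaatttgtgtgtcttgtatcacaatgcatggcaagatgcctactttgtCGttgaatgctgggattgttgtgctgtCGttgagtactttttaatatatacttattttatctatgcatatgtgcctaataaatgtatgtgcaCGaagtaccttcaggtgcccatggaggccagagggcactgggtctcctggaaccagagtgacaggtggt
Casq2: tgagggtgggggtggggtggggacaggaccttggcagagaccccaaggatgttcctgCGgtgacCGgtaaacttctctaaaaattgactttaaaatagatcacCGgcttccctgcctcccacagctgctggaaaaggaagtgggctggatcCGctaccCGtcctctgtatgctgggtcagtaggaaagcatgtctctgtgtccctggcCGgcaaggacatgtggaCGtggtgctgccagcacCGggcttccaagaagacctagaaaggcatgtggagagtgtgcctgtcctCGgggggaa

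*Nnat*, an imprinted gene that lies inside *Blcap*, had peaks first in the adult lists (chr2:157559612-157559911, + strand, 12 CpGs in the stretch shared by 3 lists). *Park7*, which encodes the oxidative stress protein DJ-1, had peaks in both adult lists and in no other (chr4:150910278-150910577, − strand, 8 CpGs).
Nnat: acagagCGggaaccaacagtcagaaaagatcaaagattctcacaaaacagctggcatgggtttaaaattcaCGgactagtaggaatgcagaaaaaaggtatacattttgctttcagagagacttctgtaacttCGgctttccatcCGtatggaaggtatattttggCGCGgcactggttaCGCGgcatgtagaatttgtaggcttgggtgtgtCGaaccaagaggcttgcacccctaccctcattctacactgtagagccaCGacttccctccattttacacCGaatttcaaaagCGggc
Park7: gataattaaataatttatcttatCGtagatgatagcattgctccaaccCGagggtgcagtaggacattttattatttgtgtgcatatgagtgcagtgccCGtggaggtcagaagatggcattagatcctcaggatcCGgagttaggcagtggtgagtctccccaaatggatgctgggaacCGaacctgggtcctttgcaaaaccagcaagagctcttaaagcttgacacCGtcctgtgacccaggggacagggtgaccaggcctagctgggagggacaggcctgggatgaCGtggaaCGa

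Promoter peaks numbered 1920 and 1844 in the E14.5 lists, 2013 and 2217 in the neonatal lists, 1782 and 1963 in the adult lists and 1763 and 1686 in the TAC lists. The read depth behind each list is unknown here and the score column is constant, so a peak has no height, and neither intervals nor detection limits could be given. TAC replicate 2 stood apart. Of the promoter peaks compared between it and another list, only 1.96% to 4.80% had a centre within 150 bp of a centre of the other list, against 14.3% to 52.4% in the 42 ordered pairs of other lists. In those 14 ordered pairs with TAC replicate 2, 13.2% to 18.6% had one 400 to 700 bp away, against 2.39% to 6.69%. The lists also grouped by replicate number at the first 2 points: 52.4% of the promoter peaks of E14.5 replicate 2 had such a centre in neonatal replicate 2 and 26.0% in E14.5 replicate 1, and for E14.5 replicate 1 these were 31.2% in neonatal replicate 1 and 25.1% in E14.5 replicate 2. Several results that involve TAC replicate 2 are given with and without it, but the counts by gene list only with it.

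The labelled cell type was checked on gene bodies, from 2 kb after the TSS to the gene end. Of 12 CMC marker genes, 9, 9, 8 and 7 had a gene-body peak in both replicates at E14.5, neonatal, adult and TAC. Of 12 fibroblast markers these were 4, 3, 4 and 2, of 12 endothelial markers 12, 9, 11 and 11, and of 12 blood markers 5, 6, 5 and 2. Over all genes the shares were 47.4%, 51.1%, 49.4% and 45.7%. At promoters, both replicates had a peak at 1, 4, 2 and 0 CMC markers, at 0 fibroblast and 0 blood markers at any point, and at 2, 1, 1 and 1 endothelial markers (*Vwf*, *Pecam1* and *Egfl7*). The part of endothelial cells in these values was not tested.

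Promoter peaks were more frequent than the size of the windows, but the excess was not confined to the windows. Of the autosomal peaks, promoter peaks made up 1.47% and 1.34% in the E14.5 lists, 1.49% and 1.47% in the neonatal lists, 1.72% and 1.62% in the adult lists and 1.69% and 1.58% in the TAC lists, all above 1.04%. The log2 ratio of the share to that of the windows was 0.57 ± 0.119 (SD, n = 8), positive in 8 of 8 samples (exact two-sided sign-flip permutation test, p = 0.00781, the smallest it can give; adjusted p = 0.0215, Benjamini-Hochberg over 11 tests). Peak centres were also dense beyond the windows. In the 7 lists without TAC replicate 2, the median was 89.9 per Mb in the 100 bp just before the window. In the 100 bp just after it the median was 61.1. These lists had on average 52.6 peaks per Mb over all autosomes, and 56.0 from 200 bp before to 100 bp after the TSS. Promoter windows were not tested against the sequence around them. Mean shares of promoter peaks (± SD, n = 2) were 1.41% ± 0.0902 for E14.5, 1.48% ± 0.0190 for neonatal, 1.67% ± 0.0655 for adult and 1.63% ± 0.0794 for TAC CMCs. Each adult and TAC replicate lay above each E14.5 and neonatal replicate. The 4 later lists did not hold more promoter peaks (1686 to 1963, against 1844 to 2217 in the 4 earlier ones) but fewer autosomal peaks (103752 to 120808, against 130532 to 151247). The exact permutation test over the 4 points gave p = 0.0476 (one-sided), but the adjusted p was 0.0873, and 2 points of 2 replicates cannot be told apart below p = 0.333. The headers record 2 ways of scaling: among the lists whose input was scaled, the shares were 1.47% and 1.34% (E14.5), 1.49% (neonatal) and 1.72% (adult), and among those whose precipitated library was scaled, 1.47% (neonatal), 1.62% (adult), 1.69% and 1.58% (TAC).

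**Figure D1:**
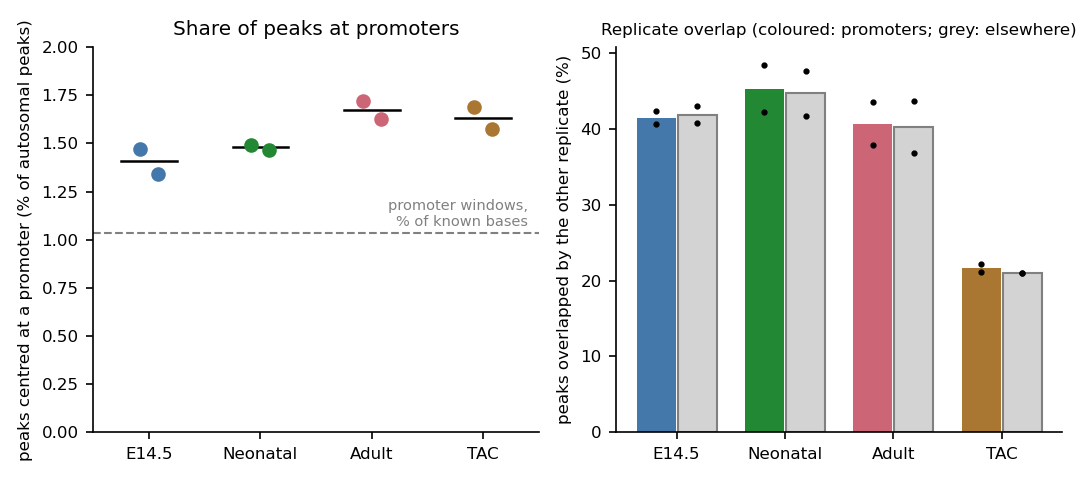
Left, share of autosomal peaks that were promoter peaks in each replicate (points) with the mean of each experimental point (line); the dashed line is the share of known autosomal bases in promoter windows, 1.04%. Right, mean share of peaks overlapped by the other replicate (bars; points, each direction) at promoters (coloured) and elsewhere (grey): the TAC bars, near 21%, were the lowest, and coloured and grey bars differed by less than 1 percentage point.

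Within the window, peak centres were sparser at the start itself than further upstream in all lists but TAC replicate 2. The median distance of the centre from the TSS was −517.5 and −509.5 bp for the E14.5 lists, −570 and −567 bp for the neonatal, −593 and −541 bp for the adult and −561 bp for TAC replicate 1, but −346.5 bp for TAC replicate 2. In those first 7 lists 90.9% to 94.0% of the centres were upstream of the TSS, and in TAC replicate 2 88.1%, beside 90.8% of the window positions, so these shares are largely set by the window. Density was measured near the start (200 bp before to 100 bp after it) and in the far part of the window (1000 to 700 bp before it). In the 7 lists the near part had on average 56.0 centres per Mb and the far part 97.4. In TAC replicate 2 these were 84.6 and 61.0, the opposite order. The log2 ratio of near to far was between −1.20 and −0.40 in the 7 lists and 0.47 in TAC replicate 2. The 4 points could not be told apart (exact permutation test, p = 0.467).

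The lower density at the start, relative to the far part, was seen at promoters of intermediate and high CpG content. Promoters were classed by sequence into 9649 low, 7431 intermediate and 7780 high CpG TSSs. At high CpG promoters the near part had 17.9 to 38.2 centres per Mb and the far part 90.6 to 140.3 in the 7 lists. At intermediate promoters these were 36.8 to 56.9 and 88.8 to 142.8. At low CpG promoters, where no island is present, they were 65.7 to 97.1 near and 60.1 to 80.5 far, so that the near part was not the lower one there. Set against all autosomes, which had 43.3 to 63.1 peaks per Mb in the 7 lists, the near part was lower by 24.9 per Mb on average at high CpG promoters (7 of 7 samples; exact sign-flip permutation test, p = 0.0156) and higher by 29.5 at low CpG promoters (7 of 7, exact p = 0.0156). At intermediate promoters it lay between −11.8 and 2.41 from the autosomal value and below it in 5 of 7 samples (exact p = 0.0938). With TAC replicate 2 the high class difference was −16.0 (7 of 8 samples, exact p = 0.125). For the high class the log2 ratio was −1.39 and −1.40 for the E14.5 lists, −2.52 and −2.46 for the neonatal, −2.84 and −2.33 for the adult and −2.01 for TAC replicate 1. The E14.5 values were the closest to 0 of these, and their range did not overlap those of the neonatal and adult lists. High minus low was −2.00 ± 1.09 (SD, n = 8), negative in 7 of 8 samples (exact sign-flip permutation test, p = 0.0156), and −2.34 ± 0.573 (SD, n = 7) without TAC replicate 2 (7 of 7, p = 0.0156, the smallest for 7). This comparison and those of the near part with all autosomes were chosen after the data were seen, and their p-values were not adjusted. In TAC replicate 2 the high class had 90.6 centres per Mb near and 58.6 far.

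**Figure D2:**
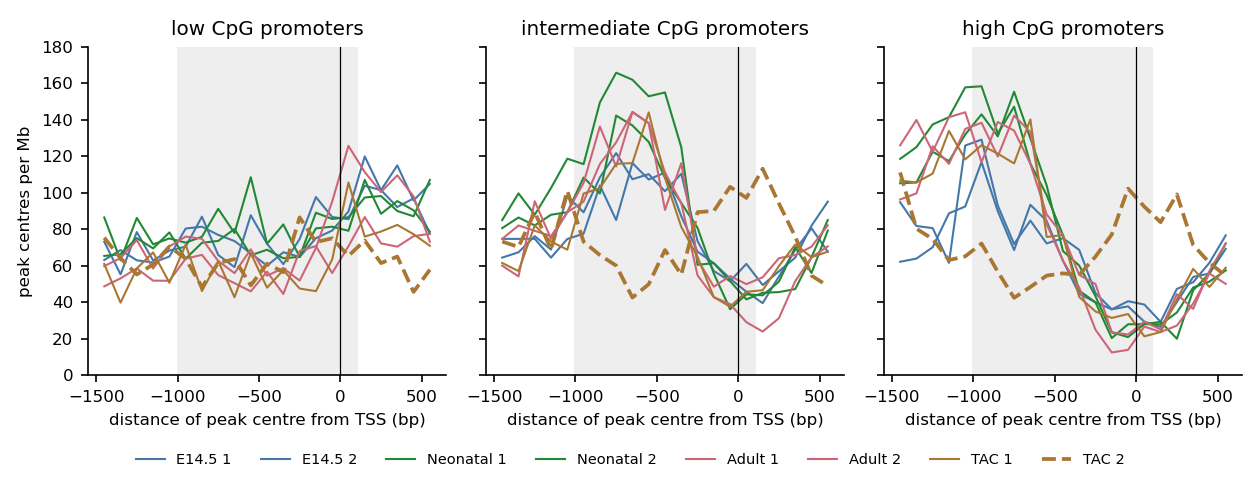
Density of peak centres (per Mb, 100-bp bins) by distance from the TSS (bp) for low, intermediate and high CpG promoters, with 1 line per list and the promoter window shaded. In 7 lists the lines fall towards the TSS at intermediate and high CpG promoters and rise at low CpG promoters (median of the 7 lists, 60.2 per Mb at 500 to 400 bp before the TSS and 86.7 in the first 100 bp after it). TAC replicate 2 (dashed) rises towards the TSS at intermediate and high CpG promoters.

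Single genes did not all follow these densities. At *Cntln*, whose sequences are given above, the centres lay at −299, −395, −283, −397, −468, −403 and −279 bp from the TSS in the 7 lists, and at −804 bp in TAC replicate 2. Those of the 7 lists were thus upstream of the start but in neither the near nor the far part. At *Dchs1*, a protocadherin gene of planar cell polarity with a high CpG promoter, they lay at −868, −109, −557, −826, −843, −842 and −473 bp, and at −817 bp in TAC replicate 2. *Prrc2b*, also of the high class, had centres between −792 and −433 bp in the 7 lists and at 20 bp in TAC replicate 2. A peak reached across the TSS itself in 24.6% to 34.8% of the promoter peaks of the 7 lists and in 45.4% of those of TAC replicate 2. In TAC replicate 2, 55 promoter peaks lay in the windows of 2 genes, against 18 to 25 in the other lists.

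The sequence under promoter peaks was richer in CpG than that under other peaks. The 7 lists had 2.22 to 2.58 CpGs per 100 bp under promoter peaks and 1.25 to 1.52 under other autosomal peaks, and TAC replicate 2 had 3.58 and 1.0. Promoters of the intermediate class had peaks most often: 8.30% to 12.1% of their TSSs, against 6.56% to 8.30% of high and 6.64% to 9.18% of low CpG TSSs. Intermediate minus high was 2.44 ± 0.993 percentage points (SD, n = 8; 8 of 8 samples; exact sign-flip permutation test, p = 0.00781, adjusted p = 0.0215). Low minus high was 0.416 percentage points, positive in 4 of 8 samples (exact p = 0.320), but reached 1.87 (exact p = 0.00781) and 1.42 (exact p = 0.0234) with predicted RefSeq transcripts added or with GENCODE transcripts. Soft-masked bases, which mark repeats, made up 16.6% to 23.2% of the bases under promoter peaks and 21.3% to 32.8% under other peaks over the 8 lists.

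Runs of CA or GA, as in the *Reep1* sequence, were unequal between replicates at some points. Under promoter peaks, CA runs split the replicates at E14.5, neonatal and adult, and GA runs at E14.5 and neonatal. A run was at least 10 unbroken units (CACACACACACACACACACA or GAGAGAGAGAGAGAGAGAGA) in either phase on either strand. The *Nxpe5* window, with its broken CA repeats, held neither kind by this rule. A CA run was held by 2143 of the 24860 promoter windows (8.62%) and a GA run by 1016 (4.09%). Under the promoter peaks themselves, a CA run was found in 5.42% and 19.2% of the peaks of E14.5 replicates 1 and 2, in 5.91% and 15.8% of the neonatal, in 4.66% and 10.9% of the adult and in 5.90% and 6.17% of the TAC peaks. Replicate 2 was thus above replicate 1 at each point, and peaks elsewhere in the genome had the same order, with 6.2% to 7.07% in the replicates 1 and 8.25% to 22.2% in the replicates 2. GA runs were under 3.85% and 9.98% of the E14.5 promoter peaks, 3.83% and 9.11% of the neonatal, 2.81% and 2.70% of the adult and 3.01% and 3.2% of the TAC promoter peaks. The labels and headers used here name no difference between these replicates that follows the same split, and its source was not tested.

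In E14.5 replicate 2, 18.7% of the promoters with a CA run had a peak, against 7.18% of those without, and in neonatal replicate 2 these were 18.1% and 8.87%. In adult replicate 1 they were 7.84% and 7.86%. The difference was 3.87 ± 4.30 percentage points (SD, n = 8; positive in 7 of 8 samples; exact sign-flip permutation test, p = 0.0156, adjusted p = 0.0417 over 8 tests by repeat and CpG class). For GA runs it was 4.06 ± 5.14 (7 of 8 samples, exact p = 0.0234, adjusted p = 0.0417). Within the classes, CA runs at high (adjusted p = 0.0781) and GA runs at low CpG promoters (adjusted p = 0.0714; exact permutation tests) did not pass, and the other 4 class tests did, each at an adjusted p of 0.0417. These tests were chosen after the sequences had been read. They took the 8 lists as independent, so their p-values may be too small. CA runs under promoter peaks were more frequent in replicate 2 at each point, though by little at TAC. Promoters with a peak in no list held a CA run in 7.17%, and those with a peak in 1 or 2 lists in 11.4%. For peaks in 3 or 4, 5 or 6, and 7 or 8 lists the shares were 12.1%, 12.3% and 16.9% (15 of 89). Of the genes with a peak in all 8 lists, *Reep1* and *Slc25a45*, a mitochondrial carrier gene, were among those with a CA run in the window, while *Car11*, *Cdsn* and *Cntln* had neither kind. *Actn2* had both kinds, as did *Cd36*, the fatty acid transporter gene. Promoter peaks without any CpG were few, between 0.113% and 1.07% per list.

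Promoter peaks had a median width of 501 bp, the exact width of 51.7% to 64.0% of them, and a mean of 674 bp against 714 bp for other peaks. The difference of −39.5 ± 32.2 bp (7 of 8 samples; exact sign-flip permutation test, p = 0.0156, adjusted p = 0.0344) depended on the annotation: it was 0.553 bp with predicted RefSeq transcripts and 14.4 bp with GENCODE. Among the widest promoter peaks were those at *H6pd*, a pentose phosphate enzyme gene of the endoplasmic reticulum (9144 bp in neonatal replicate 1), at *Lifr*, the receptor gene for leukaemia inhibitory factor (7936 bp in TAC replicate 1), at *Slc41a3* (6975 bp in E14.5 replicate 2 and 6927 bp in neonatal replicate 2), and at *Arhgef2* (6909 bp in adult replicate 2). These 4 are low CpG promoters.

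Replicates shared promoter peaks to the same degree as other peaks. The mean share of promoter peaks that overlapped a peak of the other replicate by at least 1 bp was 41.4% between E14.5, 45.3% between neonatal, 40.7% between adult and 21.6% between TAC replicates. Elsewhere it was 41.8%, 44.6%, 40.2% and 21%. The difference averaged 0.314 ± 0.474 percentage points (SD, n = 4; 3 of 4 points; exact sign-flip permutation test, p = 0.25, where 0.125 is the smallest p that 4 points allow). In TAC CMCs the share was 26.5% at low, 19% at intermediate and 18.6% at high CpG promoters, whereas at the other points the 3 classes lay within 39.0% and 45.8%.

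Alternative TSSs had promoter peaks more often than first TSSs, by a margin that depended on which first TSSs were taken. The first TSS was the outermost of a gene, and 1943 genes had 2459 others at least 1000 bp apart. In the 8 lists 6.97% to 9.29% of first and 10.9% to 13.7% of alternative TSSs had a peak. The difference was 4.36 ± 0.512 percentage points (SD, n = 8; 8 of 8 samples; exact sign-flip permutation test, p = 0.00781, adjusted p = 0.0215). Alternative TSSs were more often of the low CpG class (59.3% against 38.5%), and within the classes the difference was 6.01 for low (8 of 8), 3.17 for intermediate (8 of 8) and 1.71 percentage points for high CpG TSSs (7 of 8, exact p = 0.0156). Against the first TSSs of the same 1943 genes, of which 9.01% to 11.8% had a peak, the difference was 2.06 ± 0.733 percentage points (8 of 8 samples; exact sign-flip permutation test, p = 0.00781), and within the classes 1.95 for low (8 of 8, exact p = 0.00781), 0.984 for intermediate (5 of 8, exact p = 0.281) and 1.45 for high CpG TSSs (6 of 8, exact p = 0.0469, and 0.0938 without TAC replicate 2). These comparisons by class and within the same genes were chosen after the data were seen. *Adcy7*, an adenylate cyclase gene with 4 TSSs, was an example: in adult CMCs its peaks lay at −129 and −566 bp from an alternative TSS with a low CpG promoter. *Hopx* and *Mcf2l* had their peaks at different TSSs in different lists.

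Genes with a promoter peak also had a gene-body peak more often, in part by definition. A peak at an alternative TSS more than 2 kb inside its gene counted as both, and what this adds to the difference was not measured. Of the 15498 genes of at least 5 kb, 78.9% to 86.9% of those with a promoter peak had a peak in the gene body, against 67.6% to 72.8% of those without. The difference was 12.9 ± 1.5 percentage points (SD, n = 8; 8 of 8 samples; exact sign-flip permutation test, p = 0.00781, adjusted p = 0.0215). In the 6405 genes of 5 to 20 kb, chosen after the data were seen to limit the part of gene length, it was 16.5 ± 2.24. Of the 12 named genes with peaks at the same TSS in all 8 lists, 7 (*Cntln*, *Reep1*, *Def8*, *Dchs1*, *Alox5ap*, *Prrc2b* and *Cdsn*) had a gene-body peak in each, while *Nxpe5* had it in 6, *Idnk* in 5, *Slc25a45* in 4, *Car11* in 3 and *Gpr3* in 0 lists.

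**Figure D3:**
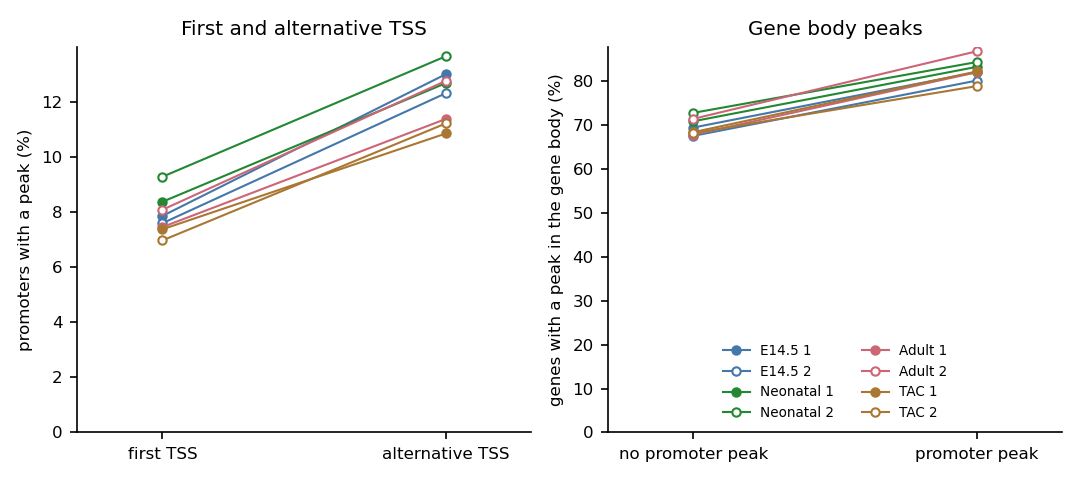
Left, percent of first TSSs of all genes and of alternative TSSs with a promoter peak; right, percent of genes of at least 5 kb with a gene-body peak, without and with a promoter peak; 1 line joins the 2 values of a list. All 8 lines rise in both panels, by 4.36 percentage points on average at left and 12.9 at right. At right, a promoter peak at an alternative TSS inside the gene body counts as both.

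A promoter peak was found at 6690 genes (33.4%) in at least 1 list, and most of these had it in few: 3002 genes in exactly 1 list, 1512 in 2, 921 in 3, 590 in 4, 352 in 5, 187 in 6, 103 in 7 and 23 (0.115%) in all 8. Both E14.5 replicates had a peak at 698 genes (3.49%), both neonatal replicates at 842 (4.21%), both adult replicates at 655 (3.27%) and both TAC replicates at 374 (1.87%). These were 23.3%, 25.5%, 21.8% and 12.2% of the genes with a peak in either replicate. Without TAC replicate 2, 60 genes had a peak in each of the 7 lists.

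Of the 23 genes found in all 8 lists, 13 had the peaks at the same TSS. Coverage is given as the number of base pairs of the 1101-bp window under peaks. *Car11*, an inactive relative of the carbonic anhydrases, had 1101 and 1024 bp in the E14.5 lists, 878 and 1101 bp in the neonatal lists, 902 and 1101 bp in the adult lists and 895 and 1052 bp in the TAC lists. Its window was nearly filled in each list. *Alox5ap*, whose product serves leukotriene synthesis, had 1101 and 1101 bp, then 1061 and 1101, 501 and 427, and 1063 and 635 bp in the same order. Its adult values were the lowest, and the adult and TAC ranges did not overlap. *Cdsn*, the gene of the skin protein corneodesmosin, had 501 and 542 bp, 664 and 739, 613 and 666, and 1101 and 634 bp. *Reep1*, which shapes the endoplasmic reticulum, had 501 and 628 bp, 501 and 1004, 629 and 905, and 767 and 292 bp, and its centres lay between −576 and −367 bp in 7 lists and at −959 bp in TAC replicate 2. *Idnk* (gluconokinase), *Gpr3* (a receptor that signals without a ligand), *Def8*, *Dchs1*, *Prrc2b*, *Cntln*, *Slc25a45* and *Nxpe5* made up the rest of those named, with 292 to 1101 bp.

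Genes were called gained or lost between 2 points when both replicates of one point had a promoter peak and neither of the other did. The lists hold presence only, so no gene was tested. From E14.5 to neonatal, 180 genes gained (0.899% of 20021) and 101 lost a peak (0.504%). From neonatal to adult, 204 gained (1.02%) and 313 lost (1.56%), but with the lists drawn down to equal size 231 gained and 175 lost. From adult to TAC, 129 gained (0.644%) and 276 lost (1.38%), and from E14.5 to adult 275 gained (1.37%) and 273 lost (1.36%). By merged regions, the shares at promoters were near those over all regions: 2.59% of 6053 promoter regions were gained and 1.16% lost from E14.5 to neonatal, against 2.49% and 1.51% of all 397618. From neonatal to adult these were 3.09% and 4.44% against 2.42% and 5.04%, from adult to TAC 1.55% and 4.08% against 1.09% and 3.11%, and from E14.5 to adult 4.34% and 3.95% against 3.36% and 4.85%. Many of these genes had another peak nearby at the point without the promoter peak. For 53.1% to 67.4% of the gained or lost genes, a list of the point without the promoter peak had a centre within 2 kb of the TSS, against 32.4% to 36.4% of all genes without a promoter peak at that point.

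Between E14.5 and neonatal, *Zbtb4*, which encodes a zinc finger protein that binds methylated CpG, had 0 bp covered in both E14.5 lists, 989 and 892 bp in the neonatal lists, 0 bp in both adult and 0 and 35 bp in the TAC lists. It was called in both neonatal lists and in no other. *Bmf*, a pro-apoptotic gene of the Bcl2 family, had 0 and 0 bp, then 924 and 910, 481 and 0, and 0 and 0 bp. *Cd9*, a tetraspanin gene, had 0 and 0 bp, 829 and 684, 803 and 0, and 0 and 112 bp. In both, 1 adult replicate still had the peak. *Csnk1g2*, a casein kinase gene, had 0 and 0 bp, 790 and 938, 863 and 1101, and 1016 and 0 bp, and its adult peaks covered the window but were centred outside it.

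Among the genes lost after E14.5, *Casq2* had 1101 and 939 bp covered in the E14.5 lists, 121 and 114 bp in the neonatal lists and 0 bp in each adult and TAC list. *Gja1*, the gene of connexin 43, the main gap junction protein of ventricular CMCs, had 1052 and 501 bp at E14.5, 85 bp in TAC replicate 2 and 0 bp in the other 5 lists. Both are genes of CMC function, and both had gene-body peaks in several lists (8 and 6 of 8). *Hspb3*, a small heat shock protein gene of muscle, had 642 and 667 bp at E14.5 and 0 bp in the other 6 lists. *Grip1*, a scaffold gene of synapses, had 1101 bp in both E14.5 lists, 0 and 427 bp in the neonatal lists, 0 bp in both adult and 352 and 0 bp in the TAC lists. *P2rx1*, an ATP-gated channel gene, had 1101 and 465 bp, 204 and 0, 629 and 1101, and 0 and 0 bp, so that it was called at E14.5 and adult and not in neonatal or TAC CMCs.

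From neonatal to adult, *Nnat* had 0 bp in the 4 E14.5 and neonatal lists, 987 and 1101 bp in the adult lists and 627 and 313 bp in the TAC lists. *Nfatc4*, a transcription factor gene downstream of calcineurin, had 0 bp in the first 4 lists, then 501 and 1101, and 766 and 498 bp. Both were covered in the 4 adult and TAC lists and in no earlier one. *Park7* had 785 and 856 bp in adult CMCs and 0 bp in the other 6 lists. *Gal*, the neuropeptide galanin gene, had 501 and 1091 bp in adult, 460 and 0 in TAC and 0 bp in the first 4 lists. *Cdh16*, the cadherin gene of kidney, went the other way, with 501 and 1101 bp in the E14.5 lists, 1025 and 1101 bp in the neonatal lists, 0 and 11 bp in the adult lists and 0 bp in both TAC lists. *Foxi1* and *Nr0b2*, transcription regulator genes of ion-transporting epithelia and of bile acid control, had 501 to 1101 bp in the E14.5 and neonatal lists and 0 bp in the adult lists and TAC lists. *Top2a*, the topoisomerase gene of dividing cells, had 501 and 635 bp, 630 and 626 bp, and then 0 bp in the last 4 lists.

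From adult to TAC, *Lifr* had 461 and 0 bp in adult CMCs and 1101 and 792 in TAC CMCs, after 234 to 346 bp at E14.5 and neonatal. *Smad3*, a signal transducer gene of TGF-beta, had 67 and 247 bp in adult, 1049 and 501 in TAC and 0 bp in the first 4 lists. *Trim32*, a ubiquitin ligase gene whose window overlaps *Astn2*, had 0 and 263 bp in adult CMCs and 900 and 656 in TAC CMCs, with centres at −20 and −22 bp from the TSS. *Ccr10*, a chemokine receptor gene, and its neighbour *Cntnap1* share a peak, with 501 and 1101 bp of the *Ccr10* window covered in TAC and 0 bp in the other 6 lists. *Dnaja4*, a co-chaperone gene, had 905 to 1101 bp in the 6 earlier lists and 0 and 0 bp in TAC CMCs. *Cuedc1* had 946 and 536 bp in the neonatal lists, 1101 bp in both adult lists and 0 bp in both TAC lists. *Il17c*, a cytokine gene of epithelia, had 847 and 1082 bp in the adult lists and 0 bp in both TAC lists. With TAC replicate 2 left out, presence in TAC replicate 1 alone decided the call, and 794 genes counted as gained and 355 as lost.

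**Figure D4:**
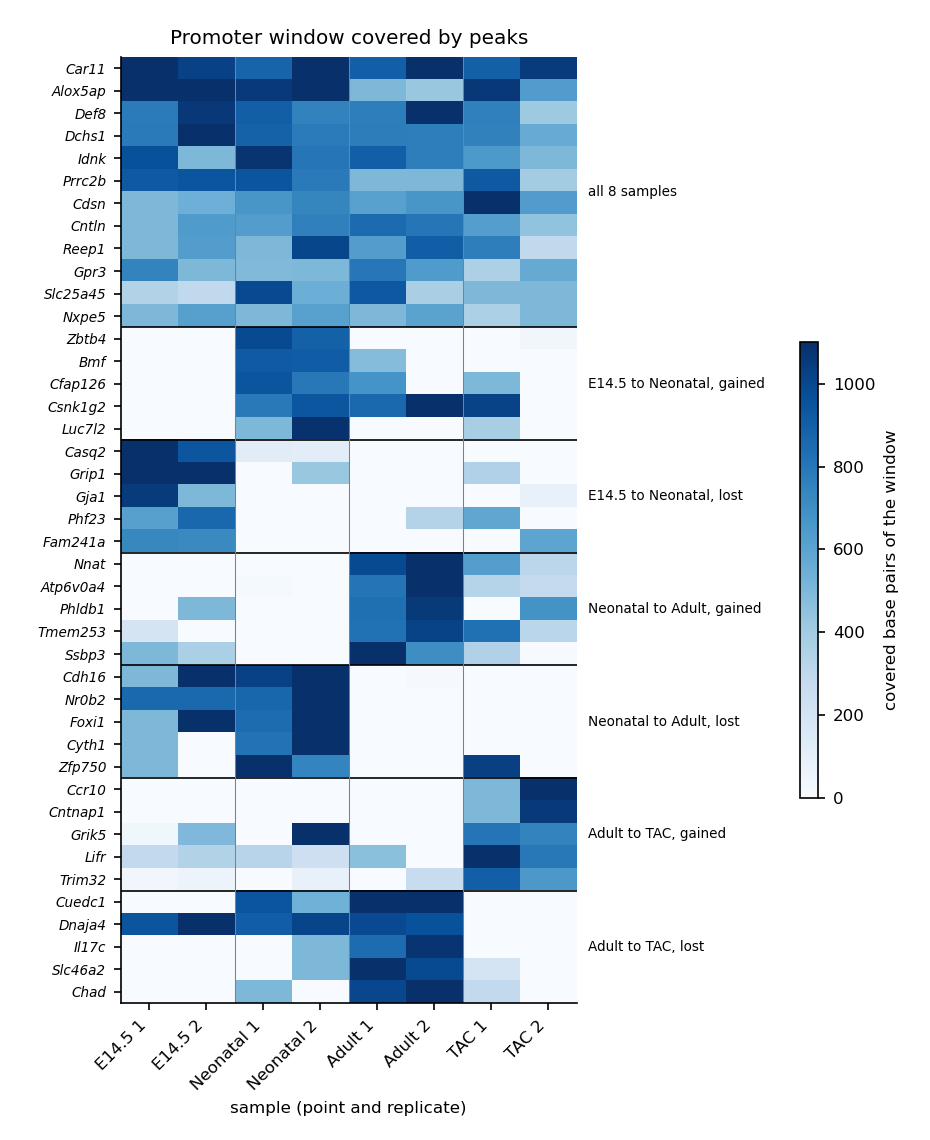
Base pairs of the promoter window (of 1101) under peaks in each list, for genes with a promoter peak in all 8 lists and for 5 gained and 5 lost genes per transition. The first 12 genes are covered across each row, whereas *Casq2* and *Gja1* are dark in E14.5 columns, *Zbtb4* in neonatal, *Nnat* in adult and *Ccr10* in TAC columns.

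Gene lists were described by how many members had a promoter peak in both replicates. The shares over all genes were 3.49%, 4.21%, 3.27% and 1.87% at E14.5, neonatal, adult and TAC. Each TAC count depends on TAC replicate 2, whose centres stood apart, and was not made without it. Of 38 sarcomere genes, 3, 6, 4 and 3 had peaks in both replicates, and 23 had a peak in some list. *Actn2* had 727 and 745 bp in the E14.5 lists, 687 and 847 bp in the neonatal lists, 501 bp in both adult and 501 and 0 bp in the TAC lists. *Nrap*, a gene of myofibril assembly, had 635 and 0 bp, 0 and 501, 501 and 517, and 501 and 741 bp. *Tnnt2*, the cardiac troponin T gene, had 404 and 370 bp, 282 and 354, 0 and 272, and 0 and 0 bp, with centres between −979 and −944 bp from the TSS, at the edge of the window. *Myl3*, a ventricular myosin light chain gene, had between 393 and 718 bp in the 8 lists, but its centres were inside the window in 5 of them.

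Of 39 genes of calcium handling and ion channels, 5, 4, 3 and 0 had peaks in both replicates. *Ryr2* had 0 bp in both E14.5 lists, 631 and 614 bp in the neonatal lists, 741 and 562 bp in the adult lists and 0 bp in both TAC lists, a neonatal and adult peak. *Trpm4*, a calcium-activated cation channel gene, had 1059 and 750 bp, 1045 and 772, 650 and 0, and 0 and 0 bp. *Casq2* and *Gja1*, given above, belonged to E14.5. The list thus had peaks at different points for different members. None of its 39 genes had a peak in both TAC replicates, where the share over all genes was only 1.87%. That count depends on TAC replicate 2.

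Of 40 genes of fatty acid uptake and oxidation, 2, 6, 2 and 0 had peaks in both replicates, with the neonatal number the highest. *Cd36* had 0 and 629 bp at E14.5, 501 and 764 in neonatal and 0 bp in the last 4 lists. *Hadh*, a gene of mitochondrial beta-oxidation, had 0 and 501 bp, 501 and 626, and then 0 bp. *Cpt1b*, the muscle gene for carnitine transfer of fatty acids, whose window overlaps *Chkb*, had 439 and 0 bp, 390 and 601, and then 0 bp. These 3 were thus covered in both neonatal lists and in no adult or TAC list. They do not stand for the whole list, as the 2 members with peaks in both adult replicates and the 2 at E14.5 were others. These pairs shared a gene, which was also called in both neonatal replicates. Glucose and glycogen genes (34) had 3, 3, 2 and 1, and TCA cycle and respiratory chain genes (44) had 1, 2, 1 and 0.

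Of 40 cardiac transcription factor genes, 2, 2, 4 and 2 had peaks in both replicates. *Mef2c* had 501 bp covered in E14.5 replicate 2, in neonatal replicate 2 and in both adult lists, and 0 bp in the other 4, with centres between −225 and −152 bp from the TSS of a high CpG promoter. *Gata4* had 0 bp in all 8 lists, although it had a gene-body peak in each. Hypertrophic and adrenergic signalling genes (40) had 3, 2, 2 and 1, among them *Agt* (angiotensinogen) with 634 and 289 bp, 640 and 627, 0 and 572, and 0 and 0 bp. Of 40 cell cycle genes 1, 1, 1 and 0 had such peaks, *Top2a* at E14.5 and neonatal and *Cdk2* in adult CMCs.

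Of 28 genes of DNA methylation and hydroxymethylation, 2, 2, 1 and 0 had peaks in both replicates. *Dnmt3a*, a de novo methyltransferase gene, had 0 bp in both E14.5 lists, 501 and 482 bp in the neonatal lists, 641 and 476 bp in the adult lists and 0 bp in both TAC lists. *Dnmt3l*, its cofactor in germ cells, had 629 and 805 bp, 501 and 968, 0 and 1020, and 501 and 144 bp. *Tet1* and *Tet2* had no centre in any promoter window, and *Tet3* had 431 bp in neonatal replicate 2 and 0 bp elsewhere, while each of the 3 TET genes had a gene-body peak in all 8 lists. Of 46 imprinted genes, 4, 4, 5 and 3 had peaks in both replicates. *Igf2r* had 228 and 426 bp, 1101 and 1050, 881 and 775, and 743 and 501 bp, with both replicates called at neonatal, adult and TAC, and *Inpp5f* had 501 to 820 bp in 7 lists and 0 bp in neonatal replicate 1.

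Lists without a cardiac role served as a comparison. Of 1467 odorant and vomeronasal receptor genes, 88 (6.00%) had a promoter peak in some list, against 33.4% of all genes, and 4, 7, 1 and 0 had it in both replicates. *Olfr324* had 671 and 468 bp in the E14.5 lists, 627 and 605 bp in the neonatal lists, 444 and 606 bp in the adult lists and 0 bp in both TAC lists. Of 112 keratin and keratin-associated genes (a list by name that includes *Krtcap3*, not a keratin) these were 5, 2, 2 and 2, of 54 germline genes 2, 4, 2 and 0, of 44 ribosomal protein genes 0, 1, 1 and 1, and of 39 Hox genes 0, 1, 0 and 0. Of 16 genes named in the study, 0, 1, 2 and 0 had them. *Ppara*, *Vim*, *Col1a2* and *Xirp2* had 0 bp in all lists, and *Myh7* had 503 bp in E14.5 replicate 2, 567 bp in neonatal replicate 2, 464 bp in TAC replicate 2 and 0 bp in the other 5, so that no point had it in both replicates.

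**Figure D5:**
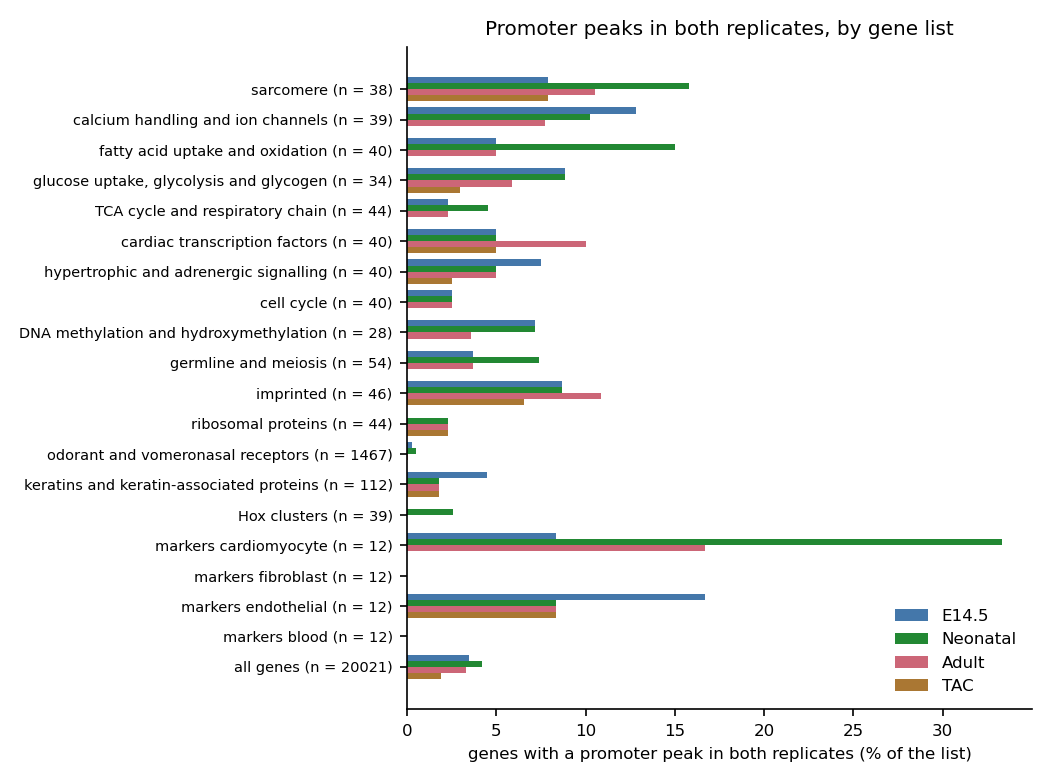
Percent of the genes of each list (n in brackets) with a promoter peak in both replicates at each point, with all 20021 genes at the bottom. The bars stand for 0 to 7 genes per list and point, the highest being 4 of 12 CMC markers in neonatal CMCs.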

How the data were processed

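Peaks of 5-hmC were analysed in 8 hMeDIP samples of CMCs (E14.5, neonatal, adult, TAC, 2 biological replicates each, grouped by their labels). Inputs and other libraries of the series were not used here. Reads had been aligned by the authors with BWA 0.7.4-r385 to mm10. They marked duplicates with Picard, removed reads of mapping quality below 10 and called peaks for each replicate against input with HOMER in its histone mode. This removes reads that cannot be placed in repeats. In the deposited lists the score of each peak is 1, and positions carry no read counts, so depth, and with it the precision of a single peak, is unknown.

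TSSs came from curated protein-coding RefSeq transcripts (annotation release 108, 36208 transcripts) on GRCm38. CpG classes used 500-bp windows: high with GC of at least 55% and observed to expected CpG of at least 0.75, low below 0.48 throughout, otherwise intermediate. Per-sample values were compared with exact permutation tests, by sign flips over samples (two-sided) or over the 2520 assignments of samples to points (one-sided), with Benjamini-Hochberg adjustment. p-values measure the spread between these samples. All sign-flip tests over samples took the lists as independent. The lists are replicates of shared points, and some grouped by replicate number, so these p-values may be too small. Code was tested on simulated peak lists (Python 3.11.15, numpy 2.4.6, scipy 1.17.1, bedtools 2.31.1). Alternatives were RefSeq with predicted transcripts, GENCODE M21, 1 kb on each side of the TSS, any overlap with the window, equal list sizes, other overlap and CpG rules, leaving out each replicate and blocking by replicate number.

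Named genes were those found in all 8 lists (20 by coverage), the 10 gained and 10 lost genes with the largest coverage difference per transition, up to 6 members per gene list, the genes the paper names and the 5 widest peaks. Provisional symbols and chromosome 18 were counted and not named, and some genes that met these rules are not reported here. *Tmem253*, *Nnat*, *Cpt1b*, *Trim32* and *Ccr10* have windows that overlap another gene. Of 175 named genes 141 were in the RefSeq promoter table. Members and lists were chosen with earlier results of these data known.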

Additional observations from a re-analysis of the deposited data

How the results depend on the processing

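Under the alternatives run for each, the enrichment of promoter peaks, the excess of intermediate over high CpG promoters, the excess at alternative TSSs and the gene-body difference kept their direction and their side of 0.05, except that the excess at alternative TSSs was 0.984 (exact p = 0.281) against the first TSSs of the same genes in the intermediate CpG class. The differences by CA and GA runs, tried only with runs of 6 units and with a replicate left out, kept theirs. With a replicate left out they ranged over 0.55 to 0.60 (log2 enrichment), 2.20 to 2.69, 4.25 to 4.49, 12.6 to 13.2, 2.78 to 4.43 and 2.89 to 4.70 percentage points, and the width difference over −45.6 to −33.1 bp. The causes of the changes below were not tested, except that leaving out a replicate leaves 1 list to decide a point.

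The p over the 4 points for the promoter share was 0.0952 with GENCODE and 0.219 with 1 kb on each side, and 0.0286 to 0.152 with a replicate left out. For TSS proximity that range was 0.0476 to 0.638, the lowest without TAC replicate 1, and for the CpG class of the peaks 0.0571 to 0.486. Low minus high CpG was 1.87 with predicted RefSeq transcripts and 1.42 with GENCODE, where the width difference turned to 0.553 and 14.4 bp, and ranged over 0.160 to 0.574 with a replicate left out. The high minus low difference in proximity ranged over −2.34 to −1.87. Coverage of *Tox3* from E14.5 to neonatal turned to −120 bp with equal list sizes.

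Counts of genes followed the window and the annotation. Both replicates had a peak at E14.5, neonatal, adult and TAC at 1218, 1442, 1144 and 776 genes (106 in all 8 lists) with predicted RefSeq transcripts, at 1193, 1365, 1188 and 771 (101) with GENCODE, at 1541, 1643, 1371 and 960 (123) with 1 kb on each side, at 1304, 1605, 1330 and 812 (120) with any overlap, and at 426 (E14.5) and 464 (neonatal; 9 in all 8) with equal list sizes. With 1 kb on each side, 273, 338, 251 and 427 genes were gained and 190, 485, 432 and 490 lost from E14.5 to neonatal, neonatal to adult, adult to TAC and E14.5 to adult. With any overlap 290, 324 and 462 were gained in the first, second and last of these. With GENCODE 413 were gained from E14.5 to adult and 153 lost from E14.5 to neonatal. With equal list sizes 231 were gained and 175 lost from neonatal to adult, the reverse of the order under the main settings (204 and 313). From E14.5 to adult 275 were gained and 167 lost, against 275 and 273. With a replicate left out, both-replicate counts ranged over 698 to 1876, 842 to 2157, 655 to 1919 and 374 to 1742, genes in at least 1 list over 5972 to 6435 and in every list over 27 to 60. Gains in the same 4 steps ranged over 180 to 849, 204 to 894, 129 to 1099 and 275 to 1024, and losses over 101 to 741, 313 to 1115, 276 to 1052 and 273 to 970. The genes called under the main settings were found again at 52.7% to 97.7% with equal list sizes and at 56.4% to 86.1% under the 4 other settings.

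Same-numbered samples deviated together with a correlation of 0.199 between E14.5 and neonatal, and of 0.00518 to 0.0325 between the other points. The labels give the numbers no meaning. With correlations this low outside that one pair of points, they were not taken to pair samples over the 4 points. That choice rests on promoter calls per gene alone. CA runs under peaks elsewhere did differ by number, with 6.2% to 7.07% in the replicates 1 and 8.25% to 22.2% in the replicates 2. With the replicate number as a block, p over the points was 0.0417 for the share, 0.333 for proximity and 0.125 for the CpG class. Within 2 numbers no sign-flip p can go below 0.5.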
